A study of Mus musculus with 6 samples.

Results

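Transcripts of the interleukin 6 (IL6) cytokine family were followed in EO771 cells, a mouse mammary tumour line, with and without lipocalin-2 (LCN2) protein. The genes described are the cytokines Il6, Il11, Lif and Clcf1, the receptor subunits Il6st, Lifr and Osmr, the transcription factor Stat3, its feedback inhibitor Socs3 and its target Cebpd. They were taken by gene symbol and are 10 of the 19832 genes in the deposited table. Per the labels, 3 libraries came from Control cells and 3 from cells treated with LCN2 recombinant protein. Both groups are the same established line, so a single tumour background is seen, and the labels name no genotype difference, dose, exposure time or batch. Per the labels' protocols, an RNeasy kit gave the RNA and a SMARTer mRNA kit the libraries. Nothing in the labels says that replicates were separate cultures, so each p-value reflects only the spread among these 6 samples, part of which may be technical.

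Cytokines of this family bind a cytokine-specific receptor subunit together with the shared subunit gp130, which Il6st encodes. Receptor-bound Janus kinases then phosphorylate STAT3, which enters the nucleus and switches on genes such as Socs3, whose product binds the receptor complex and shuts it down. In mammary tissue the pathway is known for the LIF and STAT3 signal that drives cell death in the gland after weaning, and in tumours for inflammatory signalling.

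Values are FPKM, which corrects fragment numbers for the length of the transcript and the size of the library, a unit inferred from the table and named in neither header nor label. Levels of different genes can therefore be set side by side. How many reads stand behind each library is unknown. Each library had from 13299 to 13461 genes listed above 0. Across the table, LCN2 replicate 2 lay between the controls and the other LCN2 libraries: among all called genes its median position was 63.0% of the way from the control mean to the mean of LCN2 replicates 1 and 3, on the log2 scale. The label of mammary tumour cells was checked against epithelial markers: Krt8, Krt18, Krt7, Krt19 and Krt14 were high, with 8 markers summing to between 1377 and 1448 FPKM in controls and between 1337 and 1354 FPKM with LCN2, although Krt5 and Cdh1, the E-cadherin gene, were low. Of the 6 epithelial markers tested in limma, Krt8 fell (log2 fold change -0.27, adjusted p = 0.00957) and Krt19 fell (-0.22, adjusted p = 0.0226), while Krt18 rose (0.17, adjusted p = 0.0311) and Krt14 rose (0.18, adjusted p = 0.0379). The 4 fibroblast markers in the table summed to between 489 and 545 FPKM in controls and between 581 and 612 FPKM with LCN2. Nearly all of this was Dcn, the decorin gene, which rose with LCN2 (log2 fold change 0.30, limma adjusted p = 0.00623), while Pdgfrb was listed at 0 in every library. Pdgfra, the other fibroblast marker tested, went the other way, from 4.30 ± 0.543 to 3.61 ± 0.220 FPKM. It did not pass the test (log2 fold change -0.15, limma adjusted p = 0.236). The 5 leukocyte markers in the table summed to between 9.51 and 11.4 FPKM in controls and between 10.1 and 10.7 FPKM with LCN2, most of it from Cd68. Itgam, a myeloid integrin gene under the level required for testing, was at 1.18 ± 0.137 FPKM in controls and 0.725 ± 0.105 FPKM with LCN2, without overlap. The share of low genes that lie apart downwards is not given here. Cd68, the 1 leukocyte marker tested, went the other way, from 8.48 ± 1.02 to 9.09 ± 0.256 FPKM. It did not pass the test (log2 fold change 0.15, limma adjusted p = 0.153). Mast cell markers summed to at most 0.153 FPKM, with Cpa3, Fcer1a, Mcpt4 and Tpsb2 listed at 0 everywhere. The part of these markers in the results was not tested, and in bulk RNA fewer cells of a type and less RNA per cell cannot be told apart.

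The 250 bases before the RefSeq start (GRCm38.p6) are shown for 3 of the cytokine genes, because Il6 and Lif had the largest ratios of group means among the 10 genes and the groups of Il11 overlapped. In all, 8 of the 10 genes had an entry in that table, with 10 starts between them, while Clcf1 and Cebpd had none. Capitals mark matches, on either strand, to the NF-kB consensus, to the AP-1 motif TGANTCA or to the C/EBP motif TTNNGNAA. The stretches are chr5:30012864-30013113 on the plus strand for Il6, chr11:4257318-4257567 on the plus strand for Lif, and chr7:4778142-4778391 on the minus strand for the second start of Il11. The last bases of the Lif stretch lie in the first exon of the GENCODE M21 model, and the Il11 stretch lies in no annotated exon. Each is written 5′ to 3′ along its gene.
Il6: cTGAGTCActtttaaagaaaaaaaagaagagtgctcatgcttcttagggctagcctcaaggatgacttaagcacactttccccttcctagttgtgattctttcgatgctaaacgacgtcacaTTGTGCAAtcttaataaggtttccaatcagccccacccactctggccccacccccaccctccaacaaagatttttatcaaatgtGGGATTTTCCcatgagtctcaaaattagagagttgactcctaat
Lif: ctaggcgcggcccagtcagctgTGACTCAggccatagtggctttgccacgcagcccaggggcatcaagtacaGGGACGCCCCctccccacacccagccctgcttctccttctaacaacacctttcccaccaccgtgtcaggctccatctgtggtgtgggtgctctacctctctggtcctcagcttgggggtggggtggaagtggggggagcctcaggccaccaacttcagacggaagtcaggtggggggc
Il11 second start: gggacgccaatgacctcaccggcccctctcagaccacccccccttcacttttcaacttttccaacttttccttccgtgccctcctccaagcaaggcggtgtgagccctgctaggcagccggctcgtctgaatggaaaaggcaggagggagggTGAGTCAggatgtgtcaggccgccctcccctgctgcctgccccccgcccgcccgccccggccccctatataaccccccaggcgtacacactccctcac
Il6 and Lif each held an NF-kB match and an AP-1 match. In Il6 the NF-kB match lay 44 to 35 bases before the start, the AP-1 match 249 to 243 bases before it and a C/EBP match 128 to 121 bases before it. In Lif the NF-kB match lay 178 to 169 bases and the AP-1 match 228 to 222 bases before the start. The second start of Il11 had an AP-1 match 98 to 92 bases before it and no NF-kB match. The first start of Il11, which is not shown, held no match to any motif searched, so the start shown is the one with a match. None of these matches overlapped another.

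Among 32536 distinct RefSeq stretches of the same length, 7.28% held the NF-kB motif, 6.73% the AP-1 motif and 36.8% the C/EBP motif. Both NF-kB and AP-1 were held by 116 of them, or 0.357%, a combination that was counted after the matches in Il6 and Lif had been seen. The STAT motif TTCNNNGAA, held by 7.04% of the stretches, was found in Socs3 alone among the 8 matched genes. It is shown with 10 bases on each side, from chr11:117969502-117969530 on the minus strand, 154 to 146 bases before the RefSeq start, with the match in capitals. This window lies inside the GENCODE M21 model of Socs3, whose 5′ end is further upstream, at 117970047.
Socs3: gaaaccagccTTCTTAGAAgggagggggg
Neither the cyclic AMP response element TGACGTCA (1.56% of stretches) nor the C/EBP-ATF motif TGATGNAA (3.40%) was found in any of the 8 genes. Stat3 held a C/EBP match. Il6st, Lifr, Osmr and the first start of Il11 held no match to any of the 6 motifs searched. A match describes letters only and does not show that a factor binds there.

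Of the 10 genes, 8 reached the mean of 1 FPKM over the 6 libraries that the test required, and 5 of these rose with LCN2 in limma: Lif, Clcf1, Il6st, Osmr and Socs3. None fell, nor did any reach an unadjusted p of 0.05 downwards. Among all 10309 genes tested, 21.5% changed at an adjusted p under 0.05, with 11.8% higher and 9.73% lower. The rises were of modest size, between 0.23 and 0.86 on the log2 scale, and the median log2 fold change of the 8 tested genes was 0.28, against 0.0008 for all genes tested. These genes were chosen with earlier results of these data known, so neither their count nor their median is independent evidence of direction. All 8 also had a control mean of at least 1 FPKM, so none entered the test only through its level with LCN2. After scaling, all 3 LCN2 libraries lay above all 3 controls in the 5 called genes, as in 23.0% of all genes tested, and also in Il6, which was under the level required for testing. The groups overlapped in the other 4 genes.

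**Figure D1:**
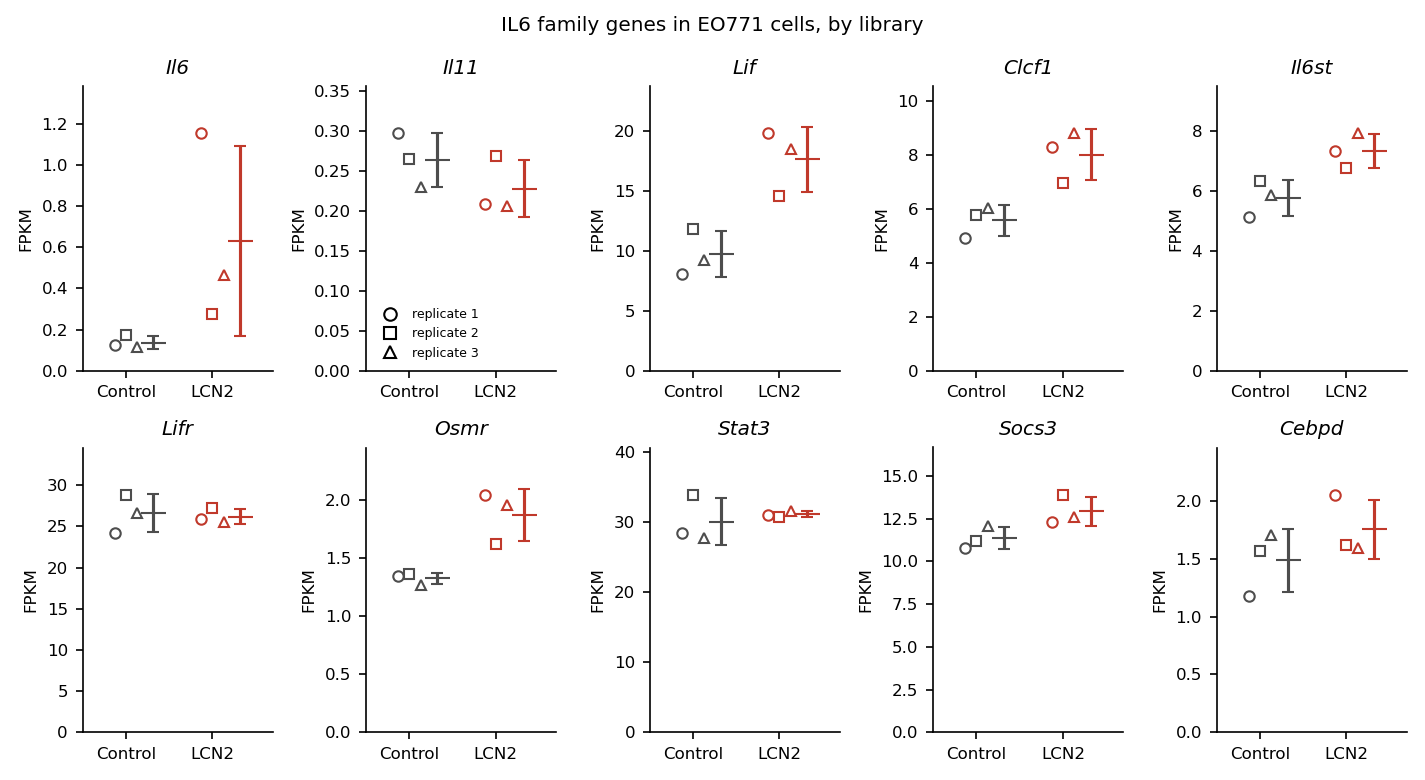
FPKM of each of the 10 genes (vertical axes, starting at 0) in the 3 Control and 3 LCN2 libraries; symbols give the replicate number, and the horizontal mark and bar give the group mean ± SD (n = 3). Lif, Clcf1, Il6st, Osmr, Socs3 and Il6 show no overlap between the groups, while the LCN2 points of Lifr, Stat3, Il11 and Cebpd lie within or across the control range.

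Among the cytokines, Lif had the highest level and the largest tested difference. Leukaemia inhibitory factor, its product, signals through LIFR and gp130. Lif (ENSMUSG00000034394, GRCm38 chromosome 11, 4257557 to 4272514, plus strand) had 8.10, 11.8 and 9.20 FPKM in Control replicates 1 to 3 and 19.8, 14.6 and 18.4 FPKM in LCN2 replicates 1 to 3. Every LCN2 library was above every control, with LCN2 replicate 2 nearest to them and Control replicate 2 the highest control. The mean went from 9.70 ± 1.91 to 17.6 ± 2.68 FPKM (SD, n = 3 in each group), which is 1.81 times the control mean. The log2 fold change was 0.86 (SE 0.14, limma adjusted p = 0.0104). Leaving out LCN2 replicate 1 ended the call (adjusted p = 0.0516 in limma), and it held in the 5 other fits that left out 1 library. Over these 6 fits the log2 fold change of Lif lay between 0.76 and 0.99. Without LCN2 replicate 1 the whole table had 267 called genes in place of 2216.

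Clcf1 encodes cardiotrophin-like cytokine factor 1, which signals through CNTFR, LIFR and gp130. It lies on chromosome 19 (ENSMUSG00000040663, 4214238 to 4223490, plus strand). Its exons overlap those of AC109138.7 on the same strand, so reads of these genes may have been shared out between them. Clcf1 had 4.95, 5.77 and 6.04 FPKM in the controls and 8.31, 6.97 and 8.81 FPKM with LCN2. As with Lif, the groups did not overlap and LCN2 replicate 2 was the lowest of its group. The mean rose from 5.59 ± 0.568 to 8.03 ± 0.951 FPKM (log2 fold change 0.51, SE 0.10, limma adjusted p = 0.0168). Leaving out replicate 1 of either group, or LCN2 replicate 3, ended the call, and the largest adjusted p was then 0.0712 in limma. With any 1 library left out, the log2 fold change of Clcf1 lay between 0.44 and 0.60.

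Il6 itself was barely present. Interleukin 6 is the founding cytokine of the family and binds the receptor subunit that Il6ra encodes. Il6 (ENSMUSG00000025746, chromosome 5, 30013114 to 30019981, plus strand) had 0.125, 0.174 and 0.114 FPKM in controls and 1.15, 0.275 and 0.467 FPKM with LCN2. All 3 LCN2 libraries were above all 3 controls, but they spread over a far wider range than the controls, and LCN2 replicate 1 stood well above the other two. The mean was 0.137 ± 0.0318 FPKM in controls and 0.631 ± 0.461 FPKM with LCN2, a ratio of 4.59. Without LCN2 replicate 1 the LCN2 mean was 0.371 FPKM and the ratio 2.70. The 6 values gave p = 0.1 by exact permutation, two-sided, and a design of 3 against 3 can give no smaller value. Of the 1773 genes with a mean of at least 0.1 and under 1 FPKM, 11.9% likewise had all LCN2 libraries above all controls. Tested in limma with the required mean lowered to 0.1 FPKM, Il6 did not pass (log2 fold change 0.50, adjusted p = 0.0877). When the pseudocount was lowered to 0.1 as well, an alternative chosen after seeing the data, it did (log2 fold change 1.49, adjusted p = 0.0482).

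Il11 encodes interleukin 11, which signals through IL11RA and gp130. Its level was low as well, and its groups were not apart. Il11 (ENSMUSG00000004371, chromosome 7, 4772373 to 4782859, minus strand) had 0.297, 0.265 and 0.230 FPKM in controls and 0.209, 0.269 and 0.206 FPKM with LCN2. The groups overlapped, since LCN2 replicate 2 lay above Control replicates 2 and 3. The means were 0.264 ± 0.0335 and 0.228 ± 0.0355 FPKM, and exact permutation, two-sided, gave p = 0.5. Il11 was above Il6 in every control library. With LCN2, Il6 was above Il11 in every library, but in LCN2 replicate 2 they were nearly level (0.275 against 0.269 FPKM).

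The shared receptor subunit rose while the most abundant partner subunit did not pass the test. Il6st (ENSMUSG00000021756, chromosome 13, 112464070 to 112510086, plus strand) had 5.12, 6.32 and 5.86 FPKM in controls and 7.32, 6.77 and 7.92 FPKM with LCN2. All LCN2 libraries were above the highest control, and LCN2 replicate 2 was again the nearest to it. The mean rose from 5.77 ± 0.607 to 7.33 ± 0.576 FPKM, or 1.27 times (log2 fold change 0.36, SE 0.08, limma adjusted p = 0.0237). Leaving out replicate 1 or replicate 3 of either group ended the call, and the largest adjusted p was then 0.0847 in limma. The log2 fold change of Il6st lay between 0.30 and 0.42 in the 6 fits that left out 1 library.

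Lifr encodes the subunit that pairs with gp130 to bind LIF. Lifr (ENSMUSG00000054263, chromosome 15, 7090614 to 7197489, plus strand) had 24.2, 28.8 and 26.7 FPKM in controls and 25.9, 27.2 and 25.5 FPKM with LCN2. All LCN2 values as deposited lay inside the control range, and after scaling LCN2 replicate 2 (27.5) lay just above the highest control (27.1). The means were 26.6 ± 2.30 and 26.2 ± 0.913 FPKM (log2 fold change 0.04, SE 0.05, limma adjusted p = 0.583), and the sign of this small difference turned when the values were left unscaled (-0.02).

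Osmr encodes the subunit that pairs with gp130 to bind oncostatin M. It was the lowest of the 3 receptor genes. Osmr (ENSMUSG00000022146, chromosome 15, 6813577 to 6874969, minus strand) had 1.34, 1.36 and 1.27 FPKM in controls and 2.04, 1.61 and 1.95 FPKM with LCN2. The controls were tightly grouped and every LCN2 library was above them, LCN2 replicate 2 by the least. The mean rose from 1.32 ± 0.0488 to 1.87 ± 0.224 FPKM, or 1.41 times (log2 fold change 0.34, SE 0.09, limma adjusted p = 0.0352). With a pseudocount of 0.1, which compresses low genes less, the log2 fold change was 0.52 for Osmr and 0.41 for Il6st. The call held without LCN2 replicate 2 and ended when any other single library was left out, the largest adjusted p then being 0.125 in limma. Across these fits, at the pseudocount of 1, the log2 fold change of Osmr lay between 0.30 and 0.41.

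Stat3 had the highest control mean of the 10 genes and did not pass the test. Stat3 (ENSMUSG00000004040, chromosome 11, 100885098 to 100939540, minus strand), whose exons overlap those of Stat5a on the opposite strand, had 28.5, 33.9 and 27.8 FPKM in controls and 31.1, 30.8 and 31.6 FPKM with LCN2. The deposited LCN2 values lay close together inside the wider control range, which Control replicate 2 set at its upper end, and after scaling LCN2 replicate 3 (32.6) lay above that end (31.9). The means were 30.0 ± 3.34 and 31.2 ± 0.419 FPKM (log2 fold change 0.12, SE 0.06, limma adjusted p = 0.181). These are transcript levels, and phosphorylation of the STAT3 protein, by which the pathway acts, was not measured here.

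Socs3 encodes the suppressor of cytokine signalling that STAT3 induces and that binds gp130 and its kinases. Socs3 (ENSMUSG00000053113, chromosome 11, 117966079 to 117970047, minus strand) had 10.8, 11.2 and 12.1 FPKM in controls and 12.3, 13.9 and 12.6 FPKM with LCN2. The groups did not overlap, but the gap between Control replicate 3 and LCN2 replicate 1 was small. Unlike the other called genes, LCN2 replicate 2 was the highest of its group here. The mean rose from 11.4 ± 0.651 to 12.9 ± 0.845 FPKM (log2 fold change 0.23, SE 0.07, limma adjusted p = 0.0471). This call was the weakest of the 5. It was lost without any 1 of the 6 libraries, with adjusted p between 0.0639 and 0.129 in limma. The log2 fold change then lay between 0.19 and 0.28. With the values unscaled the call was lost too (limma adjusted p = 0.110).

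Cebpd encodes C/EBP delta, a transcription factor of the acute-phase response and a known STAT3 target in mammary epithelium. Cebpd (ENSMUSG00000071637, chromosome 16, 15887286 to 15891031, plus strand), whose exons overlap those of Spidr on the opposite strand, had 1.18, 1.57 and 1.71 FPKM in controls and 2.05, 1.62 and 1.59 FPKM with LCN2. LCN2 replicate 1 was above all controls, while the other LCN2 libraries lay inside the control range. The means were 1.48 ± 0.274 and 1.75 ± 0.256 FPKM (log2 fold change 0.19, SE 0.11, limma adjusted p = 0.244).

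Ordered by level in the controls, Stat3 and Lifr came first, then Socs3 and Lif, Il6st and Clcf1, Cebpd and Osmr, and last Il11 and Il6. Within each of these pairs the control ranges overlapped, except that Il11 lay above Il6. With LCN2, Lif lay above Socs3 in every library, where the control ranges of these genes overlapped. Lif, Clcf1, Il6st and Osmr had LCN2 replicate 2 at 60.8%, 53.0%, 58.8% and 48.2% of the way from the control mean to the mean of the other LCN2 libraries. These positions lie near the median of 63.0% over all called genes, whose middle range ran from 50.3% to 79.4%, except that Osmr lay just below it. Socs3 was at 167%. Without LCN2 replicate 2, 4 of the 10 genes were called, Lif, Clcf1, Il6st and Osmr, and the whole table had 3160 called genes in place of 2216.

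**Figure D2:**
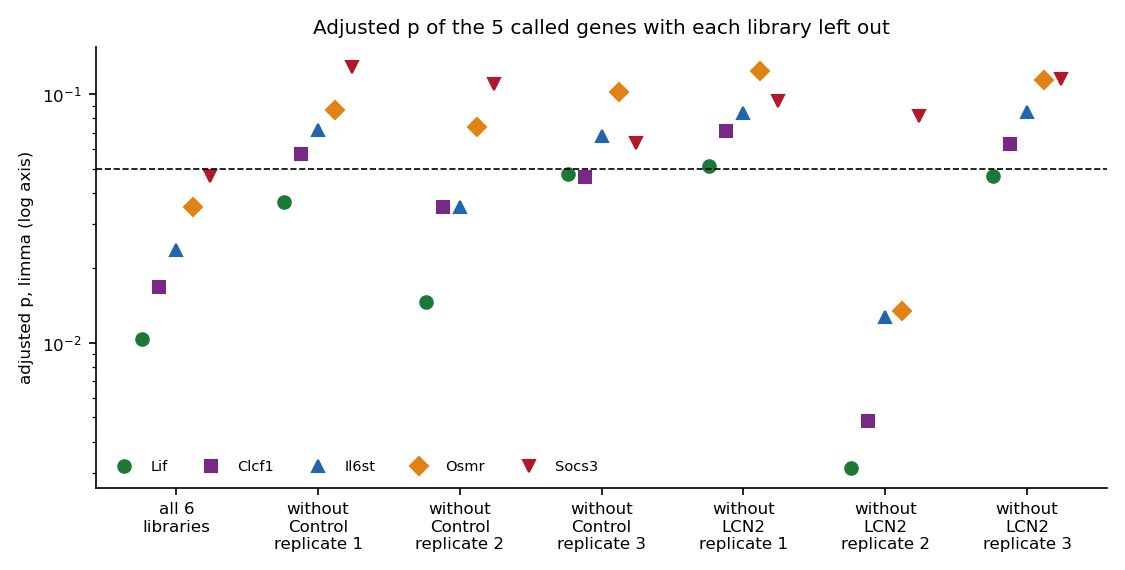
Adjusted p from limma (vertical log axis) of the 5 called genes with all 6 libraries and with each library left out in turn (horizontal axis); the dashed line is the threshold of 0.05. With all libraries the 5 points lie below the line, and without LCN2 replicate 1 all 5 lie above it, from 0.0516 for Lif to 0.125 for Osmr.

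Ratios between the genes were also compared within each library. Lifr exceeded Il6st by 4.73, 4.56 and 4.56 times in the controls and by 3.53, 4.02 and 3.22 times with LCN2. The ratio was lower in every LCN2 library than in every control, at 4.62 ± 0.101 against 3.59 ± 0.405 (n = 3 each). Osmr stood to Il6st at 0.231 ± 0.0271 in controls and 0.255 ± 0.0212 with LCN2, and these ranges overlapped. Lifr over Osmr went from 20.1 ± 1.80 to 14.2 ± 2.31 without overlap.

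Between cytokines, Lif over Clcf1 was 1.64, 2.05 and 1.52 in controls and 2.38, 2.09 and 2.09 with LCN2. The LCN2 values were higher without overlap, though Control replicate 2 came close to them. Lif over Il6 was 71.2 ± 8.33 in controls and 36.5 ± 18.1 with LCN2, lower in every LCN2 library and widest apart in LCN2 replicate 1, at 17.2. By exact permutation, two-sided, 4 of the 5 ratios gave p = 0.1, which no ratio could go below, and Osmr over Il6st gave p = 0.3 (Benjamini-Hochberg adjusted 0.125 and 0.3 over the 5). Ratios within a library do not depend on the scaling between libraries. The 5 ratios were formed from the gene values given above, some of them of called genes, so they are a description and no separate evidence. How often ratios of other gene pairs lie apart was not counted.

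**Figure D3:**
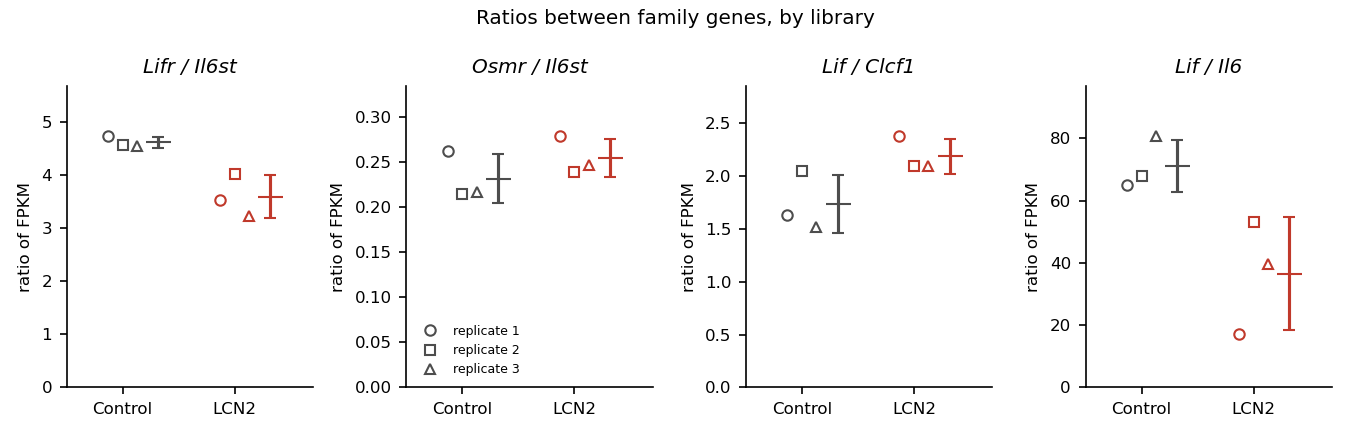
Ratio of FPKM between pairs of the genes (vertical axes, starting at 0) in the 3 Control and 3 LCN2 libraries, by replicate symbol, with group mean ± SD (n = 3). Lifr over Il6st lies close together in the controls (4.62 ± 0.101) and is lower and more spread with LCN2 (3.59 ± 0.405), while Osmr over Il6st overlaps.

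The other genes of the pathway were taken from fixed lists, 66 genes besides the 10, of which 62 were in the table and 51 were tested. In limma, 16 of the 51 rose and 4 fell, where 11.8% of all genes tested rose and 9.73% fell. With the values left unscaled 15 rose and 12 fell, where 693 of all genes rose and 1680 fell. The counts moved with the library left out, as did those of the whole table. Without LCN2 replicate 1, 1 rose and 0 fell, against 178 and 89 of all genes tested. Without Control replicate 3, 4 rose and 0 fell (292 and 164 of all genes). Without LCN2 replicate 3, 4 rose and 1 fell (303 and 185). Without Control replicate 1, 9 rose and 2 fell (434 and 219). At an unadjusted p under 0.05 in limma, 20 of the 51 were higher with all libraries. With 1 library left out, between 16 and 20 were. These unadjusted counts are given without a share over all genes, so they do not show how the lists compare with the whole table. The median log2 fold change of the 51 genes was 0.01. Among other ligands of the family, Osm and Ebi3 were listed at 0 in every library, Ctf1 and Ctf2 were not analysed here, and Il27 was at 0.109 ± 0.0576 FPKM in controls and 0.146 ± 0.0763 FPKM with LCN2, under the level required for testing. Of the other ligands reported here only Cntf, for ciliary neurotrophic factor, was tested, at 4.14 ± 1.57 and 2.67 ± 2.44 FPKM with wide overlap (log2 fold change -0.61, limma adjusted p = 0.366). Its exons overlap those of Zfp91.

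Of 3 other receptor genes tested in limma, 1 fell and none rose, beside 9.73% lower and 11.8% higher over all genes tested. None had an unadjusted p under 0.05 upwards. So few genes were tested that this is a description only. Il6ra, the IL6-binding subunit, had 4.22, 4.15 and 3.74 FPKM in controls and 3.22, 3.05 and 3.15 FPKM with LCN2. Every LCN2 library was below every control, a pattern given here without its share over all genes. The log2 fold change was -0.23 (SE 0.07, limma adjusted p = 0.0480), and the call was lost without any 1 of the 6 libraries, with adjusted p between 0.0772 and 0.141 in limma. The Il6ra call was also lost in limma after quantile normalization (adjusted p = 0.063). It was lost too with the required mean lowered to 0.1 FPKM (0.0534) and with no filter (0.0707). An antisense gene, Gm42809, overlaps exons of Il6ra. The subunits for IL11 and CNTF, Il11ra1 and Cntfr, were at control means of 2.84 and 1.47 FPKM and did not pass the test.

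None of the 9 tested Janus kinases and other STATs changed at an adjusted p under 0.05 in limma. At an unadjusted p under 0.05, 1 was higher and 3 were lower, counts given here without a share over all genes. With the values unscaled, 0 of the 9 rose and 3 fell in limma, where 693 of all genes rose and 1680 fell. The median log2 fold change of the 9 genes was -0.07. Stat6, which acts downstream of interleukin 4, was the most abundant at 55.2 ± 1.67 FPKM in controls and 51.2 ± 0.327 FPKM with LCN2 (log2 fold change -0.04, adjusted p = 0.449). Jak2, the kinase of many cytokine receptors, was at 46.7 ± 3.39 and 49.8 ± 1.68 FPKM (log2 fold change 0.15, adjusted p = 0.0637).

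Inhibitors of JAK and STAT signalling moved in both directions, with 3 of 13 tested genes higher and 2 lower in limma, against 11.8% higher and 9.73% lower over all genes tested, and 2 higher and 4 lower with the values unscaled. Socs5 rose from 16.8 ± 1.59 to 21.1 ± 1.91 FPKM (log2 fold change 0.37) and Socs7 from 7.35 ± 0.101 to 8.33 ± 0.222 FPKM (0.22), both members of the SOCS family like Socs3. Ptpn2, a phosphatase of JAKs and STATs, rose from 24.1 ± 1.92 to 29.6 ± 2.65 FPKM (0.35). Pias3, which encodes an inhibitor of STAT3, fell from 10.2 ± 0.0654 to 7.31 ± 1.07 FPKM (-0.38), and the related Pias4 from 13.1 ± 0.512 to 9.65 ± 0.770 FPKM (-0.35). The adjusted p of these 5 genes lay between 0.0130 for Pias4 and 0.0281 for Pias3 in limma. Each lost the call without LCN2 replicate 1. Exons of Pias3 overlap those of Nudt17.

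Among adaptors that link the receptors to RAS and ERK, 2 of 6 tested genes rose and 1 fell in limma, beside the same 11.8% and 9.73% over all genes, and 2 rose and 3 fell with the values unscaled. So few genes were tested that these shares are a description only. Sos2, an exchange factor for RAS, rose from 9.03 ± 0.838 to 12.2 ± 0.398 FPKM (log2 fold change 0.46, limma adjusted p = 0.00620) and kept the call without any 1 library. Ptpn11, the SHP2 phosphatase that binds gp130, rose from 40.1 ± 1.80 to 46.7 ± 2.10 FPKM (0.28, adjusted p = 0.0129). Shc1, an adaptor of receptor kinases, fell from 119 ± 3.11 to 84.5 ± 10.2 FPKM (-0.44, adjusted p = 0.0129). Ptpn11 lost the call without Control replicate 3 or LCN2 replicate 1, and Shc1 without either of these or LCN2 replicate 3.

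Known STAT3 target genes were the list with the most rises. Of 21 tested, 13 rose in limma and none fell, with 1 gene, Mcl1, at an unadjusted p under 0.05 downwards (log2 fold change -0.14, adjusted p = 0.0575). Leaving out Il6st and Osmr, which are in this list too, 11 of 19 rose, with a median log2 fold change of 0.35, beside 11.8% higher and a median of 0.0008 over all genes tested. With the values unscaled, 11 of the 19 rose and 1 fell, where 693 of all genes rose and 1680 fell. The counts were also 11 and 1 with equal column sums (950 and 1308 of all genes) and after quantile normalization (1109 and 1164). With the replicate number as a block, 0 rose and 0 fell (181 and 81 of all genes). Of these 19, 7 rose when Control replicate 1 was left out, where 434 of all genes tested rose. When Control replicate 3 was left out, 3 rose (292 of all genes). Leaving out LCN2 replicate 3 left 2 rises (303 of all genes), and leaving out LCN2 replicate 1 left 0 in limma (178 of all genes). Without LCN2 replicate 1, 12 of the 19 were higher at an unadjusted p under 0.05 in limma, given here without a share over all genes. Many of these genes also answer to other pathways. The list was written with earlier results of these data known, so its count is not independent evidence of its direction.

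By adjusted p, Hif1a came first, a hypoxia-responsive transcription factor gene that rose from 71.3 ± 5.41 to 86.9 ± 4.25 FPKM (log2 fold change 0.35, limma adjusted p = 0.0102). Bcl6, a transcriptional repressor, rose from 2.29 ± 0.331 to 4.77 ± 1.03 FPKM (0.85). The AP-1 subunit gene Junb rose from 161 ± 37.2 to 274 ± 25.6 FPKM (0.85). Cebpb, which encodes C/EBP beta, the relative of C/EBP delta, rose from 35.0 ± 7.86 to 62.5 ± 10.2 FPKM (0.89). Bcl3, an NF-kB cofactor, rose from 15.5 ± 3.00 to 23.8 ± 2.20 FPKM (0.66), and Myc, a growth regulator, from 124 ± 21.2 to 188 ± 21.4 FPKM (0.66). Their adjusted p reached 0.0143 in limma, and each of the 6 lost the call without LCN2 replicate 1. Exons of all but Myc overlap those of another annotated gene. Lcn2 itself, also a STAT3 target, was at 0.109, 0.107 and 0.0513 FPKM in controls and 0.289, 0.237 and 0.302 FPKM with LCN2, under the level required for testing.

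**Figure D4:**
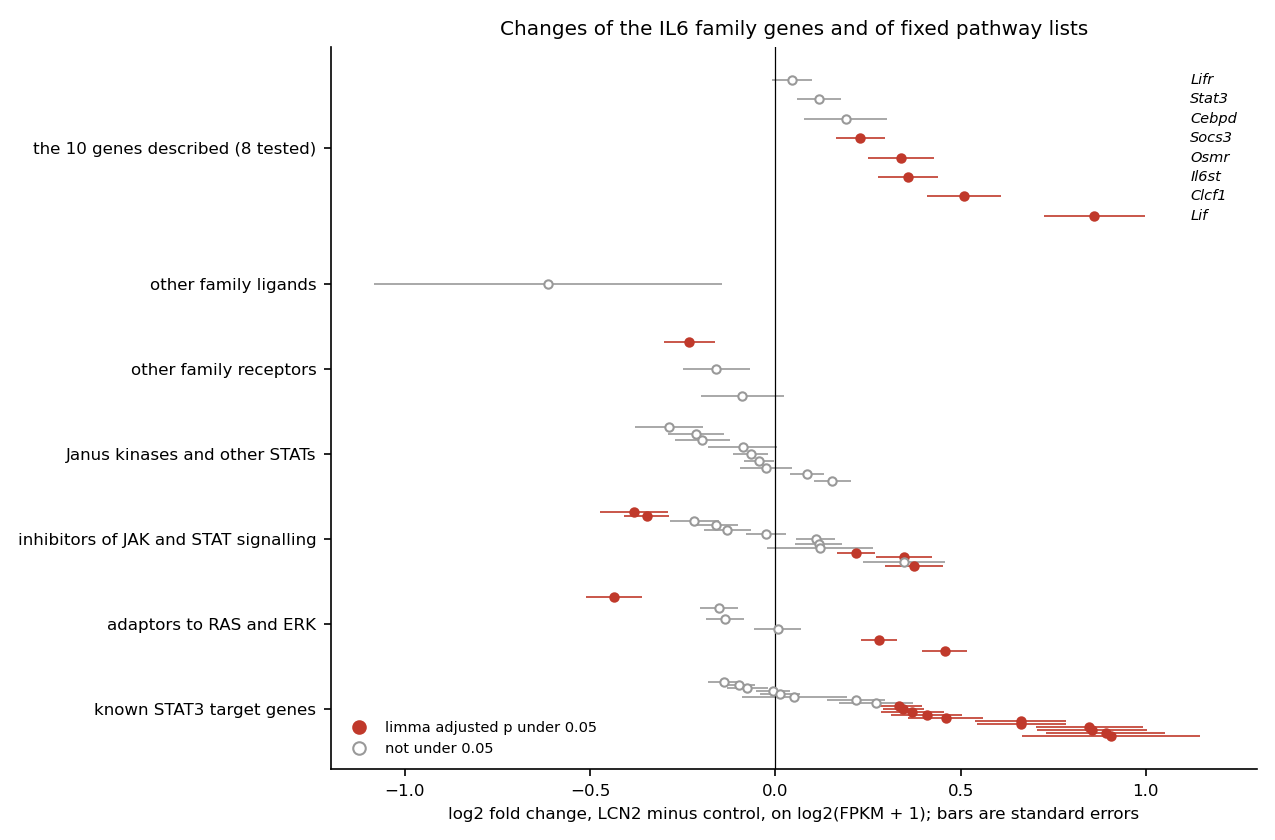
Log2 fold change, LCN2 minus Control on log2(FPKM + 1), with its standard error (horizontal axis) for the 8 tested genes, named at the right, and for the tested genes of each fixed list (rows); filled points passed an adjusted p of 0.05 in limma. The STAT3 target row leaves out Il6st and Osmr and has 11 filled points of 19, all to the right of 0, while the kinase and STAT row has none.

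Genes with the most similar pattern over the 6 libraries were sought for Lif and Il6st among the 10308 other tested genes, by Pearson's r on the scaled log2 values, as a description. For Lif these were Apobec1 (r = 0.9985), Wsb1 (r = 0.9985) and Rad18 (r = 0.9982). Apobec1, an RNA-editing enzyme gene, had 6.30, 8.96 and 7.24 FPKM in controls and 16.0, 11.1 and 14.5 FPKM with LCN2. For Il6st they were Btf3l4 (r = 0.9972), Csnk2a2 (r = 0.9965) and Pyroxd1 (r = 0.9963). Lif and Il6st had r = 0.9667 with each other, which placed Il6st at rank 532 for Lif and Lif at rank 421 for Il6st. All these points share the same 6 libraries and their contrast between groups.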

How the data were processed

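RNA of 3 Control and 3 LCN2 libraries of EO771 cells was compared. The authors deposited 1 table with a value per gene and library. Its name speaks of raw counts, but 0% of values were whole (tolerance 1e-09), and a library's values, once multiplied by the kilobases of the longest transcript, added up to between 1032628 and 1095179, so the deposited values were treated as FPKM. Per the submitters' processing notes reads were placed on GRCm38. The quantifier, the aligner and any use of strand are not given in the sources. Read depth is unknown, so counting intervals are not given: among genes of low value, the commonest ratio between libraries held at most 4 of 242 to 281 genes.

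Tests used limma 3.58.1 in R 4.3.3 on log2(FPKM + 1), which understates the change of low genes, after TMM scaling (trimmed mean of M-values) without count weights (trims 0.3 and 0.05, factors 0.970 to 1.06). They took the 10309 genes whose mean reached 1 FPKM, with a variance trend and no replicate term, with Benjamini-Hochberg adjustment over all of them, two-sided, called at an adjusted p under 0.05. Log2 fold changes are given as LCN2 minus Control. The scripts were tested on simulated data. Group means ± SD are of the deposited FPKM. Gene models were taken from GENCODE M21 (GRCm38) and promoters from RefSeq (GRCm38.p6). The 10 genes, the lists and the settings were chosen with earlier results of these data known. All 10 genes are named; from each list, the called genes (at most 6, by adjusted p) or, with none called, the 2 of highest mean. A gene that the lists held is not reported here and was left out of their counts. Il11ra1, Cntfr, Mcl1 and Lcn2 were named after their values were seen. Alternatives changed the scaling, the pseudocount, the filter, the variance trend, the replicate term and the libraries used.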

Additional observations from a re-analysis of the deposited data

How the results depend on the processing

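The called genes named among the 10 genes and from the pathway lists number 20. The cell type markers and the genes of similar pattern are not among them and were not followed here. Of the 20, 18 kept the call with the values as deposited and 19 with equal column sums. With median-ratio scaling 20 kept it, and after quantile normalization 19. With a pseudocount of 0.1 or of 0.5, 20 kept it, and with the required mean lowered to 0.1 FPKM, 18. With no filter 16 kept it, and without a variance trend 19. None changed sign in any of these. Calls lower than Control made up 45.3% of all calls as reported (1213 higher, 1003 lower), 70.8% with the values as deposited (693 higher, 1680 lower) and 57.9% with equal column sums, and the median of all genes moved to -0.06 with the values as deposited. Lif, Clcf1, Il6st and Osmr stayed called in each of these scalings, while Socs3 was not called with the values as deposited or with equal column sums. With no filter 3 of the 10 genes were called, Lif, Clcf1 and Osmr. The log2 fold change of Lifr turned to -0.0176 with the values as deposited. Leaving out 1 library gave between 267 and 3160 called genes in the table, between 0 and 4 of the 10 genes and between 1 and 26 genes of the pathway lists. Without Control replicate 1 the table had 653 called genes and only Lif was called of the 10; without Control replicate 2, 1794 and 3; without Control replicate 3, 456 and 2. The fit lacking LCN2 replicate 1 called 267 and 0, the fit lacking LCN2 replicate 2 called 3160 and 4, and that lacking LCN2 replicate 3 called 488 and 1. The log2 fold change of Lifr then lay between -0.0043 and 0.0752. With the replicate number as a block, 262 genes of the table were called, 0 of the 10 genes and 1 of the pathway lists. In limma with the block, and likewise without LCN2 replicate 1, 5 of the 8 tested genes were higher at an unadjusted p under 0.05. This count is given without a share over all genes, so it does not make up for the lost calls. Same-numbered libraries did not deviate together (r of their deviations from the group means -0.224, -0.261 and 0.00858), so the numbers were not read as pairs. Count-based tests were not run because the table holds no counts. Unknown depth limits most the genes under 1 FPKM, Il6 and Il11 among them.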
